A study of Homo sapiens with 2 samples.

Results

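Aldo-keto reductases were described in the hepatocellular carcinoma line PLC8024, in wild-type (MAEL WT) and MAEL knockout (MAEL KO) cells. In MAEL KO cells the transcripts of AKR1C1, AKR1C2 and AKR1B1 were 1.70-fold to 2.20-fold lower than in MAEL WT cells, and those of AKR1D1, AKR7A3 and AKR7A2 were 1.65-fold to 2.49-fold higher. AKR1A1 and AKR1C3 were each 1.19-fold lower. The values of AKR1D1 and AKR7A3 rest on only 17 to 42 counts per library. None of these 8 genes passed the study's log2 fold threshold of 2, against 7.8% of all genes compared. In both libraries AKR1C4 was near the detection limit and AKR1B10 was not detectable. The members were the 10 genes of the deposited count table named AKR1A1, AKR1B1, AKR1B10, AKR1C1, AKR1C2, AKR1C3, AKR1C4, AKR1D1, AKR7A2 and AKR7A3, out of 58735 genes listed. They were picked by gene name, but with earlier results of these data known.

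Aldo-keto reductases are cytosolic enzymes that use NADPH to reduce aldehydes and ketones to alcohols on a barrel-shaped protein fold. In liver they act on steroids, bile acid precursors, prostaglandins, retinal, sugars, and the reactive aldehydes that arise from lipid peroxidation and from toxins. The AKR1C enzymes are hydroxysteroid dehydrogenases encoded side by side in a gene cluster, AKR1D1 reduces the steroid ring double bond in bile acid synthesis, the AKR1B enzymes include aldose reductase, and the AKR7A enzymes reduce aflatoxin dialdehyde.

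Total RNA of 2 libraries was sequenced, 1 of MAEL WT cells, with the wild-type genotype and no treatment, and 1 of MAEL KO cells. PLC8024 is labelled as Alexander cells, an epithelial hepatoma line from liver. The MAEL KO cells were made with an sgRNA and Cas9 plasmid against MAEL, a germline gene of the piRNA pathway. Sorted transfected cells had been seeded as single clones, so effects of the clone and of the lost gene cannot be told apart, and in the study the knockout was checked by western blot and T7E1 assay. With 1 library per condition there was no replicate error, and no difference between the conditions could be tested. All intervals given are 95% intervals. They hold only the error of counting reads, and reads lacking molecular identifiers can be copies of 1 molecule.

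The MAEL WT library held 19904136 counts and the MAEL KO library 20833332. MAEL itself had 1 count in MAEL WT and 0 in MAEL KO, at or under the floor of 3 counts used here, so it gave no check of the genotype labels. The study describes PLC8024 as having the highest MAEL expression of its lines, which it blotted for the protein. MAEL RNA was nonetheless nearly absent from the MAEL WT library. The hepatocyte marker list was detected in both libraries, and all 15 of its 15 genes had a log2 fold change above 0, with a summed level of 19904.1 CPM (counts scaled to the library total) in MAEL WT and 33728.31 CPM in MAEL KO. ALB, which encodes albumin, had 59 counts in MAEL WT and 8550 in MAEL KO. Of the other lists, the summed level of 7 cholangiocyte markers was 23.61 CPM in MAEL WT and 6.91 CPM in MAEL KO, that of 7 fibroblast or stellate markers 13.82 and 8.5 CPM, that of 6 endothelial markers 18.14 and 19.54 CPM, and that of 6 immune markers 65.26 and 36.0 CPM. Genes within these lists differed: EPCAM had 15 and 0 counts, VWF 1 and 0, ACTA2 0 and 0, and PTPRC 3 and 0. PECAM1, however, had 348 and 392 counts, COL1A1 92 and 11, COL3A1 54 and 136, and LYZ 1251 and 737. Mitochondrial genes took 4.42% and 4.95% of the counts. In bulk RNA, fewer cells of a type and less RNA per cell cannot be told apart, and the part of the higher hepatocyte markers in the results on the aldo-keto reductases was not tested.

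The AKR1C genes lie within 256 kb of each other on chromosome 10, and their sequences are close enough that reads can match more than 1 of them. The stretch that ends at the transcription start of AKR1C1 is shown with the matching stretches upstream of AKR1C2, AKR1C3 and AKR1C4, because AKR1C1 and AKR1C2 had the most counts of the cluster and were both lower in MAEL KO. The sequences are from RefSeq, build GRCh38.p14, written 5′ to 3′ on the strand of the gene, and capitals mark bases that differ from AKR1C1 or have no counterpart in it.
AKR1C1 (chr10:4963295-4963414, plus strand): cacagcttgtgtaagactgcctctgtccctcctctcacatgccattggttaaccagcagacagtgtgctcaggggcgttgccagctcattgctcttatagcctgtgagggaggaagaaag
AKR1C2 (chr10:5003862-5003981, minus strand): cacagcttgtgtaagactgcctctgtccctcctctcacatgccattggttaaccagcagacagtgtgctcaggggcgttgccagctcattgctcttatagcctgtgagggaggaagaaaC
AKR1C3 (chr10:5048665-5048781, plus strand): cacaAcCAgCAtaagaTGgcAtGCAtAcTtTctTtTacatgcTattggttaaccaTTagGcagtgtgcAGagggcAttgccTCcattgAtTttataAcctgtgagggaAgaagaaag
AKR1C4 (chr10:5196704-5196819, plus strand): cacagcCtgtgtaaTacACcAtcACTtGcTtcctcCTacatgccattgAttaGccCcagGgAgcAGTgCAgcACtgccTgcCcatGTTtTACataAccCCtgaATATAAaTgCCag
The AKR1C2 stretch differed from that of AKR1C1 at 1 of 120 bases, the last base shown. Over the upstream sequence that could be aligned, AKR1C2 was identical to AKR1C1 at 245 of 245 bases, an alignment that ends just before the differing base, whereas AKR1C3 was identical at 74.0% of 250 aligned columns at the start shown and at 74.6% of 248 at its other start. AKR1C4 was identical at 65.7% of 233 columns. Each stretch shown lies inside the listed bounds of its gene.

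The transcripts followed the same order of likeness. Between the longest coding transcripts of AKR1C1 and AKR1C2, 97.1% of 3770 aligned columns were identical. AKR1C3 was identical to AKR1C1 at 87.1% of 1366 columns, and AKR1C4 at 80.5%. Of all 100-base windows of the AKR1C2 transcript, 32.9% occurred without a mismatch in the transcript of another gene, compared with 17.4% for AKR1C1, 5.0% for AKR1C3 and 0.5% for AKR1C4. AKR7A3 shared 12.2% of its windows with AKR7L, while AKR1B10 shared 2.0%, AKR7A2 0.4%, and AKR1A1, AKR1B1 and AKR1D1 none. How reads matching several genes were counted is not given in the sources used here, so values of AKR1C1, AKR1C2 and AKR7A3 are uncertain. These shares do not bound the uncertainty, since they hold only exact matches of 1 coding transcript per gene. No exon of a member overlapped an exon of another gene.

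**Figure D1:**
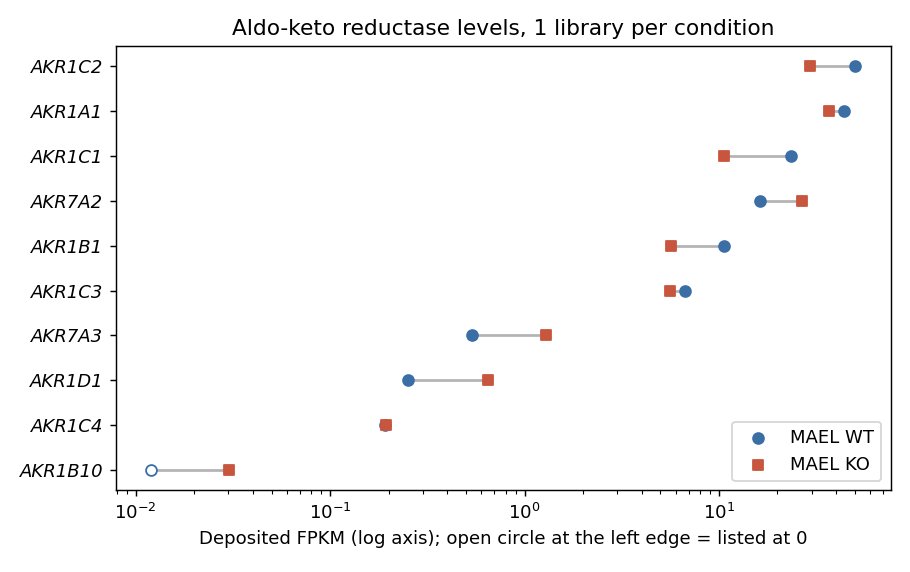
Level of each of the 10 aldo-keto reductases in FPKM (fragments per kilobase of listed gene length, scaled to library size) on a log axis, with 1 point per library and no replicate error. AKR1C2, AKR1A1, AKR1C1 and AKR7A2 lie above 10 FPKM in both libraries, and AKR1D1, AKR7A3, AKR1C4 and AKR1B10 lie at or below 1.30 FPKM in both.

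Levels are given in FPKM as deposited, which divide the counts by the length of all annotated exons of a gene. In MAEL WT the order was AKR1C2, AKR1A1, AKR1C1, AKR7A2, AKR1B1, AKR1C3, AKR7A3, AKR1D1, AKR1C4 and AKR1B10, and neighbours among the first 7 had counting intervals that did not overlap. Those of AKR7A3 and AKR1D1, of AKR1D1 and AKR1C4, and of AKR1C4 and AKR1B10 overlapped. In MAEL KO the order was AKR1A1, AKR1C2, AKR7A2, AKR1C1, AKR1B1, AKR1C3, AKR7A3, AKR1D1, AKR1C4 and AKR1B10, and the intervals of AKR1C2 and AKR7A2, of AKR1B1 and AKR1C3, and of AKR1C4 and AKR1B10 overlapped. The highest FPKM thus passed from AKR1C2 in MAEL WT to AKR1A1 in MAEL KO, and AKR7A2 stood above AKR1C1 in MAEL KO only. These crossings depend on the listed lengths, 6461 bases for AKR1C2, 3121 for AKR1A1, 8765 for AKR1C1 and 1781 for AKR7A2. In counts, AKR1C2 stayed above AKR1A1 and AKR1C1 above AKR7A2 in both libraries.

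The FPKM of the 10 members summed to 152.3 in MAEL WT and 117.5 in MAEL KO. AKR1C1 and AKR1C2 together made up 48.38% of the sum in MAEL WT and 34.2% in MAEL KO. The share of AKR7A2 and AKR7A3 was 11.02% in MAEL WT and 23.92% in MAEL KO. AKR1A1 took 28.95% and 31.51%, while its level was 44.1 and 37.0 FPKM.

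Differences between the libraries are given as log2 fold changes, with MAEL KO over MAEL WT, from counts scaled by TMM with 1 added. A total of 17887 genes reached 10 counts in either library and were compared in this way, and are called tested genes. Of the 10 members, 8 passed this filter, each with at least 10 counts in both libraries, and AKR1C4 and AKR1B10 did not. None of the 8 passed the log2 threshold of 2 in either direction, against 7.8% of all genes tested (2.16% higher and 5.64% lower). At a log2 threshold of 1, AKR1D1 and AKR7A3 were higher and AKR1C1 was lower, against 26.7% of all genes (10.2% higher and 16.5% lower). The median of the 8 was -0.25, beside -0.04 over all genes tested. The counting interval lay above 0 for 3 members and below 0 for 5, against 34.8% and 34.7% of all genes, or 69.5% with an interval that excludes 0. With counts scaled by library totals these member counts were again 3 and 5, against a background of 22.5% and 49.3%, and the median over all genes was then -0.31.

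**Figure D2:**
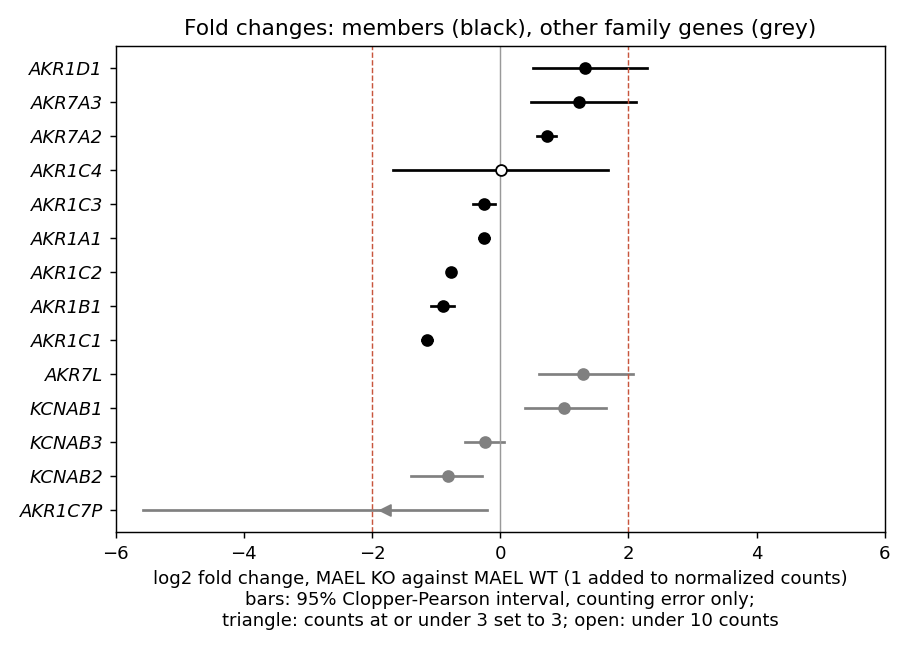
Log2 fold change, MAEL KO over MAEL WT, for the members (black) and the further aldo-keto reductase genes that passed the count filter (grey), with bars for the 95% counting interval, dashed lines at 2 in each direction, an open circle for AKR1C4 under the filter, a triangle for AKR1C7P with MAEL KO set to 3 counts, and no replicate error. AKR1B10 is not drawn. AKR1C1 at -1.14, AKR1B1 at -0.89 and AKR1C2 at -0.76 lie to the left, and AKR7A2 at 0.73, AKR7A3 at 1.24 and AKR1D1 at 1.32 to the right, with no member past 2 in either direction.

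AKR1C1, which inactivates progesterone by reducing it, had 4485 counts in MAEL WT and 1764 in MAEL KO, or 23.4 and 10.6 FPKM. The log2 fold change was -1.14 (interval -1.22 to -1.06), the lowest of the 8 members and the rank of 2523 from the lowest of all genes tested. Its level went from the 89.4th to the 73.9th percentile of tested genes. AKR1C1 (ENSG00000187134) is listed at chr10:4963253-4983283 on the plus strand of GRCh38.

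AKR1C2, which reduces dihydrotestosterone to a weaker androgen, had 7104 counts in MAEL WT and 3620 in MAEL KO, or 50.3 and 29.6 FPKM. It was the most abundant member in MAEL WT and was lower by a smaller factor than AKR1C1, at -0.76 on the log2 scale (interval -0.82 to -0.70). The ratio of AKR1C1 to AKR1C2 counts was 0.631 in MAEL WT and 0.487 in MAEL KO. This difference between the near-identical pair was 0.37 on the log2 scale (interval 0.28 to 0.47) and does not depend on how the libraries are scaled. Whether reads shared by both genes entered it or were left out is not known.

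AKR1C3, which makes testosterone from androstenedione and also reduces prostaglandins, had 664 and 484 counts, or 6.70 and 5.63 FPKM. Its log2 fold change of -0.25 (interval -0.42 to -0.07) was nearer to 0 than that of AKR1C1 by 0.89 (interval 0.70 to 1.08) and that of AKR1C2 by 0.52 (interval 0.34 to 0.70). The summed counts of AKR1C1, AKR1C2 and AKR1C3 were 12253 in MAEL WT and 5868 in MAEL KO, or -0.85 on the log2 scale (interval -0.90 to -0.81). This sum does not depend on how reads were split among these 3 genes. The sum was thus set mainly by AKR1C2 and AKR1C1.

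AKR1C4, the liver-type hydroxysteroid dehydrogenase that acts after AKR1D1 in bile acid synthesis, had 8 counts in MAEL WT and 7 in MAEL KO. At 0.191 and 0.193 FPKM it was near the detection limit in both libraries, and the counting interval of its log2 fold change, -1.68 to 1.68, could not show a difference in either direction at this depth.

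**Figure D3:**
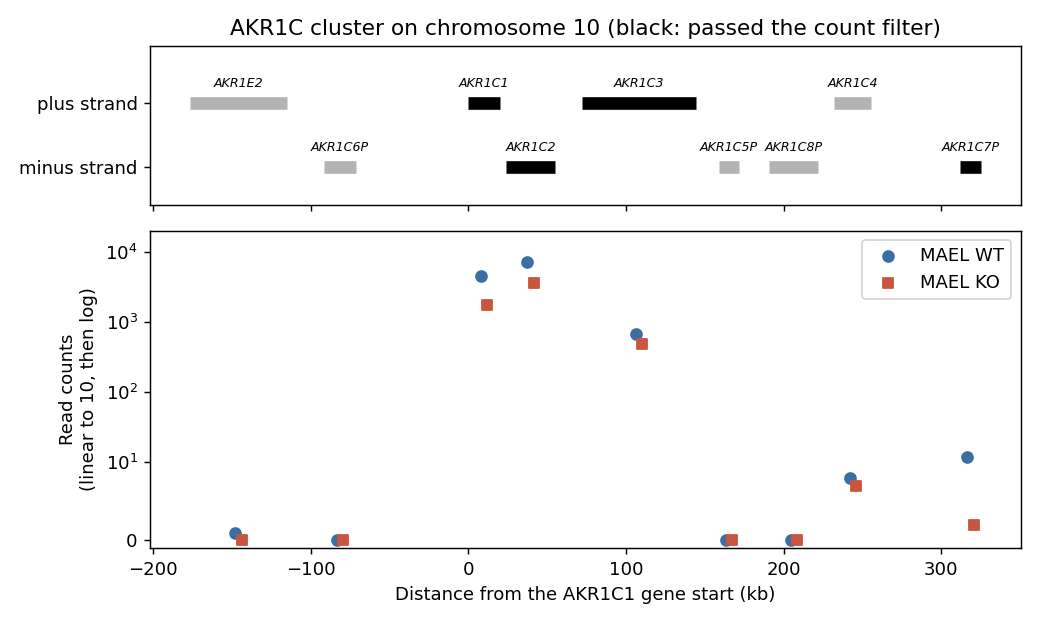
Aldo-keto reductase genes of the AKR1C cluster by distance in kb from the start of AKR1C1, with each gene drawn to scale and its counts in MAEL WT and MAEL KO given. AKR1C1, AKR1C2 and AKR1C3, next to each other, hold nearly all counts of the cluster and are lower in MAEL KO, while AKR1C4, AKR1C5P, AKR1C6P, AKR1C8P and AKR1E2 have from 0 to 8 counts.

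Few other genes around the cluster were expressed. Within 250 kb of AKR1C1, the only tested gene outside the family was the antisense transcript AL391427.1, with 44 and 25 counts and a log2 fold change of -0.59. It lies inside AKR1C2 on the opposite strand, and without a stated strand setting its reads cannot be told apart from unspliced reads of AKR1C2. The pseudogene AKR1C7P had 12 and 2 counts, which is -1.95 on the log2 scale (interval -5.58 to -0.21). With MAEL KO set to the floor of 3 counts, AKR1C7P was at -1.79. NET1, the only tested coding gene outside the family within 250 kb of AKR1C4, was higher, at 1.10.

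AKR1B1 encodes aldose reductase, which turns glucose into sorbitol in the polyol pathway. It had 848 counts in MAEL WT and 394 in MAEL KO, or 10.6 and 5.68 FPKM, and its log2 fold change was -0.89 (interval -1.07 to -0.72). Its log2 fold change lay between those of AKR1C1 and AKR1C2. It was nearer to 0 than that of AKR1C1 by 0.24 (interval 0.05 to 0.43), and its difference from AKR1C2 had an interval of -0.05 to 0.32 that includes 0. AKR1B1 (ENSG00000085662) is listed at chr7:134442350-134459284 on the minus strand, and the tested genes within 250 kb that are not aldo-keto reductases, SLC35B4 and BPGM, had log2 fold changes of 0.05 and -0.47.

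AKR1B10, a relative of aldose reductase that reduces retinal and fatty aldehydes and is known as a gene raised in many liver cancers, had 0 counts in MAEL WT and 1 in MAEL KO. Both values were under the floor, which is 0.0786 FPKM in MAEL WT and 0.0907 FPKM in MAEL KO, so no fold change is given. The transcript was hence not detectable in PLC8024 cells at this depth. CALD1, a tested gene within 250 kb, had a log2 fold change of 0.06.

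AKR1A1, the aldehyde reductase that converts glucuronate on the way to ascorbate in most mammals, had 3009 and 2190 counts, or 44.1 and 37.0 FPKM. Its log2 fold change of -0.25 (interval -0.33 to -0.17) could not be told apart from that of AKR1C3 (interval of the difference -0.19 to 0.19). It was nearer to 0 than that of AKR1C1 by 0.89 (interval 0.77 to 1.00) and that of AKR1C2 by 0.51 (interval 0.42 to 0.61). AKR1A1 (ENSG00000117448) is listed at chr1:45550543-45570049 on the plus strand, among 16 tested genes within 250 kb whose log2 fold changes had a median of 0.32. These ranged from -0.53 for MAST2 to 1.62 for NASP, so that AKR1A1 lay below the median of its surroundings.

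AKR1D1 makes the bent steroid ring system of the bile acids by reducing a ring double bond. It had 17 counts in MAEL WT and 38 in MAEL KO, or 0.251 and 0.648 FPKM. The log2 fold change of 1.32 (interval 0.51 to 2.29) was the highest of the 8 members, at rank 1096 from the highest of all genes. The level nonetheless was low in both libraries, at the 8.8th and the 23.7th percentile of tested genes.

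AKR7A2, which reduces succinic semialdehyde and aflatoxin dialdehyde, had 633 counts in MAEL WT and 905 in MAEL KO, or 16.2 and 26.8 FPKM. It was the only member with more than 100 counts that was higher in MAEL KO, at 0.73 on the log2 scale (interval 0.58 to 0.87). Against AKR1C3, which had a like number of counts in MAEL WT, its log2 fold change was higher by 0.97 (interval 0.74 to 1.20). The ratio of AKR7A2 to AKR1A1 counts was 0.21 in MAEL WT and 0.413 in MAEL KO.

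AKR7A3, a close relative that also reduces aflatoxin dialdehyde, had 20 and 42 counts, or 0.535 and 1.30 FPKM, and its difference was 1.24 on the log2 scale (interval 0.48 to 2.13). Its log2 fold change could not be told apart from that of AKR7A2 (interval of the difference -0.26 to 1.42) or of AKR1D1 (interval -1.14 to 1.33). The transcripts of AKR7A2 and AKR7A3 were identical at 83.0% of 1284 aligned columns. AKR7L, the neighbouring AKR7-like gene that shares windows with AKR7A3, had 25 and 54 counts at 1.29 on the log2 scale (interval 0.61 to 2.07). AKR7A3 and AKR7L summed to 45 counts in MAEL WT and 96 in MAEL KO, at 1.28 (interval 0.78 to 1.85). How much of either value comes from shared reads cannot be told from these tables.

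The AKR7A genes lie on chromosome 1, AKR7A2 at chr1:19303965-19312146 and AKR7A3 at chr1:19282558-19289250, both on the minus strand. The 9 tested genes within 250 kb outside the family had a median of 0.31, from -0.41 for UBR4 to 1.77 for the antisense transcript AL035413.1, with MRTO4 at 1.34. AKR7A2 and AKR7A3 were hence above this median but within the range of their neighbours.

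Promoter windows, from 250 bases before to 50 after each RefSeq start, were found for 9 of the 10 members (12 starts). They were searched on both strands for the antioxidant response element TGACNNNGC, the partial HNF1 site GTTAAT and the C/EBP site TTGCNNCAA. The antioxidant response element was found in AKR7A2 and in no other member, and it occurred in 13.3% of 35116 promoters. The partial HNF1 site was found in AKR1D1 alone, beside 6.9% of all promoters, and the C/EBP site in no member, beside 2.0%. The stretches that hold these matches are shown for the members that were higher in MAEL KO, with the matches in capitals, from RefSeq GRCh38.p14 on the strand of the gene. AKR7A2 holds 3 matches of the antioxidant response element, 1 of which reads on the other strand, and AKR1D1 holds 1 partial HNF1 site.
AKR7A2 (chr1:19312225-19312324, minus strand): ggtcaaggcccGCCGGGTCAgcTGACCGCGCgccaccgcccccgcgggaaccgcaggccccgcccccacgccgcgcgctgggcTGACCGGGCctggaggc
AKR1D1 (chr7:138076349-138076448, plus strand): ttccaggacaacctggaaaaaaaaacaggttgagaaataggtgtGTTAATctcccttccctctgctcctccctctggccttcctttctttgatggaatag
These are matches of letters within these windows, and binding was not measured. The AKR7A2 stretch also lies directly before PQLC2, which starts at chr1:19312326 on the plus strand. PQLC2 had 1574 and 1181 counts, or -0.20 on the log2 scale (interval -0.31 to -0.09), and so was lower in MAEL KO. The AKR1D1 start used by RefSeq lies inside the listed gene, chr7:138002324-138117986 on the plus strand. The RefSeq starts of the AKR1C genes also lie inside their listed genes.

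Of 10 further aldo-keto reductase genes and pseudogenes, 5 passed the count filter, none passed the log2 threshold of 2, and their median was -0.24. KCNAB1, KCNAB2 and KCNAB3, which encode potassium channel beta subunits of the aldo-keto reductase fold, had log2 fold changes of 0.99, -0.81 and -0.24. The last of these had an interval of -0.55 to 0.07. AKR7A2P1 had 3 and 4 counts, AKR1B15 2 and 0, and AKR1E2 1 and 0, and no read was counted for AKR1C6P or AKR1C8P. The expressed family outside the members was thus small in these cells.

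**Figure D4:**
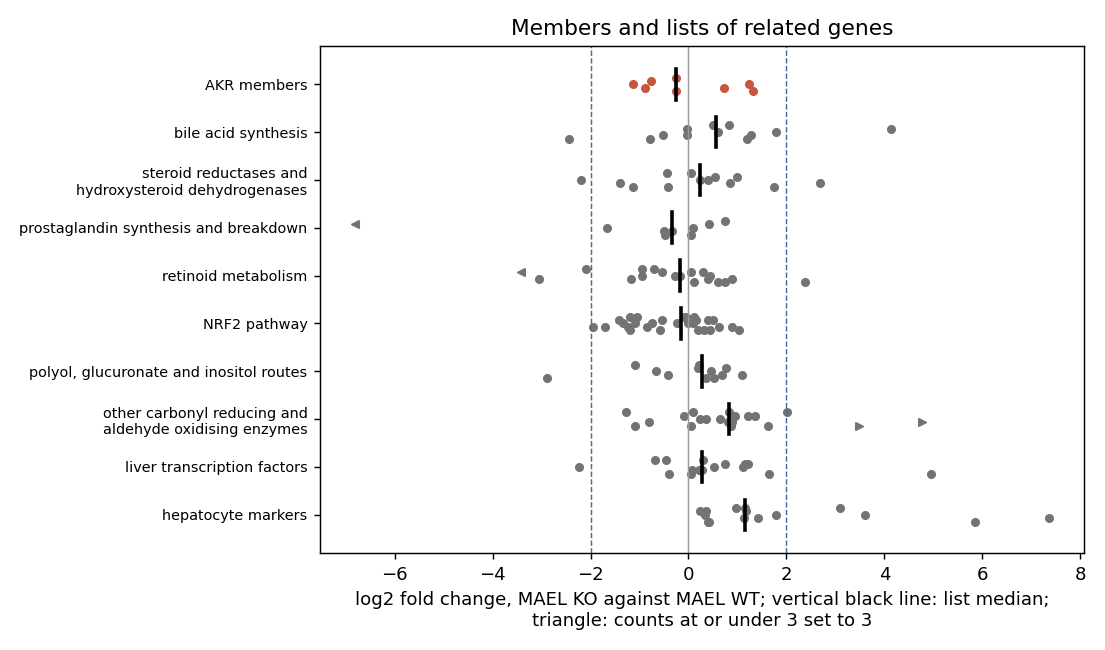
Log2 fold change, MAEL KO over MAEL WT, for each tested gene of 8 lists of related pathways, of the members and of the hepatocyte markers, with dashed lines at 2 in each direction, 1 point per gene, a bar at the median of each list and triangles for genes set to 3 counts in a library at or under 3. The median was 0.82 for other carbonyl reducing and aldehyde oxidising enzymes, 0.56 for bile acid synthesis and -0.33 for prostaglandin synthesis and breakdown, against -0.04 for all genes.

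The routes in which the members act were described by gene lists, each by its counts past the log2 threshold of 2 and its median. In bile acid synthesis, 12 of 15 genes were tested, 1 was higher, 1 was lower and the median was 0.56. BAAT, which couples bile acids to amino acids, had 5 and 92 counts (log2 fold change 4.15), and CYP39A1, an oxysterol hydroxylase, had 555 and 88 (-2.43). CYP7A1, the rate-limiting enzyme of the classical route, had 0 counts in both libraries. CYP27A1, which begins an alternative route, had 81 and 100 counts (0.51) and was named after its value was seen.

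Among 20 other steroid reductases and hydroxysteroid dehydrogenases, 13 were tested, with 1 higher, 1 lower and a median of 0.23. HSD17B2, which inactivates testosterone and estradiol, had 5 and 33 counts (2.69), and HSD17B6, which oxidises androstanediols, had 88 and 16 (-2.19). With counts scaled by library totals the median of this list was -0.05, so its sign depends on the scaling, whereas AKR1C1 and AKR1C2 were lower in MAEL KO under both.

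In prostaglandin synthesis and breakdown, 9 of 15 genes were tested, none was higher past the threshold, 1 was lower and the median was -0.33. PTGS2, the inducible cyclooxygenase, had 390 counts in MAEL WT and 1 in MAEL KO, which is -7.45 on the log2 scale (interval -13.70 to -5.91). With MAEL KO set to the floor of 3 counts, PTGS2 was at -6.81. The study followed up PTGS2, partly from these samples, so its value here is not independent evidence. AKR1C3 and AKR1B1, which can form prostaglandin F from the product of this enzyme, were lower by 0.25 and 0.89 on the log2 scale, far less than PTGS2.

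Of 21 genes of retinoid metabolism, 19 were tested, with 1 higher, 3 lower and a median of -0.16. CYP26A1, a retinoic acid hydroxylase, had 17 and 80 counts (2.37), whereas its relative CYP26B1 had 65 and 6 (-3.04). STRA6, the retinol transporter, had 37 and 3 counts (-3.07, interval -5.76 to -1.76), and LRAT, which esterifies retinol, had 33 and 6 (-2.09). The list thus moved in both directions.

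All 28 genes of the NRF2 pathway were tested and none passed the threshold of 2. At a threshold of 1, 1 was higher and 9 were lower, against 10.2% and 16.5% of all genes, with a median of -0.16. The counting interval lay above 0 for 10 and below 0 for 16, against 34.8% and 34.7% of all genes. PRDX1, a peroxidase encoded near AKR1A1, was the highest, with 5619 and 9979 counts (1.04). AKR1C1 was lower, as were TXNRD1 at -0.84 and GCLM at -0.54, 2 other targets of this factor, while AKR7A2 was higher. Other genes of the list were nearer to 0 or higher, such as NQO1 at -0.23, GCLC at -0.01, HMOX1 at 0.19 and TXN at 0.43. Apart from PRDX1, the list genes given here were named after their values were seen. The part of this factor in the results on the members was not tested.

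Of 13 genes of the polyol, glucuronate and inositol routes, 12 were tested, none was higher past the threshold, 1 was lower and the median was 0.28, or 0.009 with counts scaled by library totals. MIOX, the inositol oxygenase, had 41 and 4 counts (-2.88). SORD, which acts after aldose reductase, had 566 and 831 counts (0.76), and it was named after its value was seen. The enzymes of the polyol pathway, AKR1B1 and SORD, hence moved in opposite directions.

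Of 25 other carbonyl reducing and aldehyde oxidising enzymes, 21 were tested, with 3 higher, none lower and the highest median of the 8 lists, at 0.82. The counting interval lay above 0 for 14 of them and below 0 for 2, against 34.8% and 34.7% of all genes. ADH1C had 1 and 71 counts (5.33, interval 3.84 to 11.68), and ADH1A had 1 and 29 (4.06, interval 2.48 to 10.42). ADH6 had 179 and 630 (2.02). All are alcohol dehydrogenases of liver. ADH1C and ADH1A were under the floor in MAEL WT, and with 3 counts set there they were at 4.775 and 3.483. Of 18 liver transcription factors, 17 were tested, 1 was higher, 1 was lower and the median was 0.27, or 0.001 with counts scaled by library totals. NR1H4, the bile acid receptor FXR, had 9 and 270 counts (4.96), and CEBPB, which the study also followed up, had 9375 and 1723 (-2.23). The hepatocyte markers, at a median of 1.15, were higher beside these lists, and their part in them was not tested. With counts scaled by library totals the medians of the other lists were 0.28 for bile acid synthesis, -0.60 for prostaglandins, -0.44 for retinoids, -0.44 for the NRF2 pathway, 0.54 for the other carbonyl enzymes, -0.51 for the further aldo-keto reductases and 0.87 for the hepatocyte markers, beside -0.31 over all genes. Of the genes on the 8 lists, 3 stood on more than 1.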

How the data were processed

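RNA was sequenced from 1 library of MAEL WT and 1 of MAEL KO PLC8024 cells. Gene counts were deposited as raw whole numbers. FPKM values were deposited too, made by the authors from these counts, the listed gene length and a library size of their own. Per the labels' processing notes, HISAT2 2.0.5, featureCounts 1.5.0-p3 and hg19 were used, but 58724 of the 58735 deposited genes carry the GRCh38 start and end of GENCODE 29. Strand and multimapping settings are not given in the sources used here. The table columns name the line PLC5 and were matched to the samples by genotype.

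Counts were scaled by TMM (edgeR 4.0.16, R 4.3.3) to the mean library size, and 1 was added for log2 fold changes. Intervals were exact Clopper-Pearson limits of the MAEL KO share of a gene's counts. For differences between members they were exact limits of the conditional odds ratio of their counts in the 2 libraries. In FPKM they were exact Poisson limits. The floor of 3 counts equals 0.1507 CPM in MAEL WT and 0.144 CPM in MAEL KO. Values with a library set to 3 counts were made without the added 1. The threshold of 2 is the study's fold threshold on the log2 scale, and no p-value is given since nothing measures the spread between replicates. Sequence likeness was computed with Biopython 1.88, plots with matplotlib 3.10.9, and other values with Python 3.11.15, pandas 2.3.3, SciPy 1.17.1 and NumPy 2.4.6. The calculation was tested on simulated data. Genes named were all members, all genes of the list of other aldo-keto reductases, genes within 250 kb of a member that passed the count filter, and of each further list those past the threshold (at most 3 at each end) or else the highest and lowest. The value of 1 gene that this rule names is not reported here. Members and lists were chosen with earlier results of these data known. Alternatives were DESeq2 1.42.0 size factors, total counts, deposited FPKM ratios, other added counts, filters and thresholds, protein-coding genes alone, and edgeR or DESeq2 tests on the 2 libraries.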

Additional observations from a re-analysis of the deposited data

How the results depend on the processing

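No paired analysis was possible because each condition had 1 library, and for the same reason no replicate could be left out. No member passed the log2 threshold of 2 under the 5 alternatives that can move a single value (other scalings, the FPKM ratio and other added counts). The other gene filters and the edgeR and DESeq2 tests with an added p criterion also gave 0, but they leave a member's fold unchanged or only tighten the call, so they bear little on it. With a threshold of 1, 3 members passed, 2 higher and 1 lower in MAEL KO. Scaling by total counts moved the summed AKR1C1, AKR1C2 and AKR1C3 from -0.85 to -1.13, since it moved the median of all genes from -0.04 to -0.31. Under it AKR1C1 was at -1.41, AKR1B1 at -1.17, AKR1C2 at -1.04, AKR1A1 and AKR1C3 at -0.52 and AKR7A2 at 0.45. Of 40 values of single members under those 5 alternatives, 34 stayed within their counting interval, the other 6 were these, and 0 changed sign. The 34 say little about stability. The DESeq2 size factors, 1.074 in MAEL WT and 0.931 in MAEL KO, nearly equalled the TMM scaling at 1.073 and 0.927. The deposited FPKM ratio also gave close values, with AKR1C1 at -1.139 beside -1.136. Total counts were the scaling that differed, and 6 of the 8 tested members left their interval under it. The median of the tested members ranged from -0.52 with total counts to -0.12 with no count filter. Depth limits AKR1D1 and AKR7A3, which rest on 17 to 42 counts per library, and AKR1C4 and AKR1B10, which rest on 8 or fewer.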
